A study of Mus musculus with 12 samples.

Results

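The 43 genes described here encode the proteins that choose splice sites and the kinases that switch them on. They were taken from the 24328 symbols of the deposited count table by name: 11 SR proteins (Srsf genes), 20 heterogeneous nuclear ribonucleoproteins (hnRNPs), 4 CDC-like kinases (Clk1 to Clk4), 3 SR protein kinases (Srpk1 to Srpk3), 3 LUC7L factors and the TRA2 pair. RNA was sequenced from microglia, the resident macrophages of the brain, which had been purified with a FACS sorter. The mice were wild-type Balb/c, 4 in each of 3 groups. Allogeneic recipients were lethally irradiated and received 5000000 bone marrow cells and 300000 T cells from an allogeneic donor, and were killed on day 14, which the labels call the peak of graft-versus-host disease. Syngeneic recipients had the same irradiation, cell doses and day with a syngeneic graft. Control mice were untransplanted. The sources used here do not give the donor strain, the sorting gate or whether donor-derived cells were gated out. Irradiation and transplantation came together in both recipient groups, so their parts cannot be told apart in a comparison with controls. The sources used here give no batch or date of sorting or library preparation, so a batch that fell together with the control group could not be told apart from transplantation either.

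SR proteins bind exon sequences through RNA recognition motifs and recruit the spliceosome through an arginine- and serine-rich tail. The SRPK kinases phosphorylate that tail mainly in the cytoplasm, which lets the protein enter the nucleus, and the CLK kinases phosphorylate it further in the nucleus and release it from speckles. Many hnRNPs bind introns or exons and oppose SR proteins at nearby sites, and LUC7L proteins are partners of the U1 particle that recognises the donor splice site. Many genes of these families control their own messenger RNA by exons or introns whose inclusion sends the transcript to decay or holds it in the nucleus, with Clk1 a well-known case. The deposited values are counts per gene, so spliced and intron-containing transcripts are counted together here.

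Allogeneic libraries held 35559202 to 42641198 counts, syngeneic libraries 36422729 to 46126118 and control libraries 32652208 to 45439607. Levels are given as CPM, which scales counts to 1 common library total after TMM factors, and a floor of 3 counts in a library lay between 0.0588 and 0.0945 CPM, for counting error only. Of the 43 genes, 42 passed the filter on low counts. The gene that did not, Srsf12, stood at 0.0505 CPM in library 4 of the syngeneic group and at 0 counts in the other 11 libraries. The 16 microglia markers were detected in all groups, with summed levels of 59754 to 65950 CPM in allogeneic, 66241 to 68321 CPM in syngeneic and 68061 to 78768 CPM in control libraries. Within that sum markers moved both ways. Against controls, 6 were higher and 10 lower in allogeneic recipients at an edgeR adjusted p under 0.05 (28.2% and 29.1% of all genes). In syngeneic recipients 9 were higher and 7 lower (26.4% and 25.6% of all genes). Csf1r stood at 2682 to 3089 CPM in allogeneic, 3127 to 3950 CPM in syngeneic and 10473 to 12925 CPM in control libraries. C1qb stood at 12060 to 14840, 7746 to 8804 and 5838 to 7014 CPM in that order. Markers of other cells also differed between groups. The 12 choroid plexus markers summed to 425 to 801 CPM in allogeneic, 1452 to 2535 CPM in syngeneic and 21.9 to 146.8 CPM in control libraries, with 1 marker at 0 counts in every control library. The 9 astrocyte markers summed to 398 to 493, 321 to 378 and 273 to 346 CPM in the same order of groups. Most of that sum was Slc1a3, at 352 to 449, 270 to 346 and 271 to 342 CPM. The 9 neuron markers summed to 6.74 to 11.1, 8.18 to 17.0 and 1.57 to 2.25 CPM. The 12 markers of monocytes and engrafted macrophages summed to 682 to 952 CPM in allogeneic, 102 to 167 CPM in syngeneic and 31.98 to 43.8 CPM in control libraries, and the 7 NK cell markers to 21.2 to 36.4, 0 to 1.79 and 0 to 1.57 CPM in the same order, with Ncr1, Gzma and Prf1 at 0 counts in every library. Most of the NK sum in allogeneic libraries was Klrk1, at 20.2 to 34.5 CPM. The 7 neutrophil markers in the table summed to 334 to 398 CPM in allogeneic, 321 to 365 CPM in syngeneic and 543 to 687 CPM in control libraries. Nearly all of that sum was Csf3r, at 331 to 395, 320 to 358 and 540 to 678 CPM in the same order. The 8 T cell markers summed to no more than 4.93 CPM in any library. The part of these markers of other cells in the results on splicing factors was not tested.

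The DNA just before the start site is printed for 6 of the member genes with a RefSeq window. It shows how these promoters are built and which of the searched motifs they hold. Each run holds the 250 bases before the start site that RefSeq gives in mouse build GRCm38.p6, 5′ to 3′ on the strand of the gene, with matches to the motifs searched in capitals on either strand. The Clk4 window is chr11:51262864-51263113, plus strand, and that of Tra2a is chr6:49264053-49264302, minus strand. The Srpk3 window is chrX:73774155-73774404, plus strand, and that of Srsf2 is chr11:116853095-116853344, minus strand. The Hnrnpa0 window is chr13:58128557-58128806, minus strand, and that of Hnrnpab is chr11:51606882-51607131, minus strand. The first 4 genes were lower in recipients than in controls and the last 2 were higher.
Clk4: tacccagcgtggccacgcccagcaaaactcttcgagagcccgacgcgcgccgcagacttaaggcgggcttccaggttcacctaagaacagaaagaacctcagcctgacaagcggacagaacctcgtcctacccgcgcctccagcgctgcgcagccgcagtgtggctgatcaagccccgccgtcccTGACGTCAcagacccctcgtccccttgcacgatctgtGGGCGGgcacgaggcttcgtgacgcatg
Tra2a: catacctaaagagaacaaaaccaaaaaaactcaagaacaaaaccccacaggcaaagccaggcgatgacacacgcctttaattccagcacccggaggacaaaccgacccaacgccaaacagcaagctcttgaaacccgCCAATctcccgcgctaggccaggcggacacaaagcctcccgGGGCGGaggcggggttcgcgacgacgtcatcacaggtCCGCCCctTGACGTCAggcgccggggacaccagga
Srpk3: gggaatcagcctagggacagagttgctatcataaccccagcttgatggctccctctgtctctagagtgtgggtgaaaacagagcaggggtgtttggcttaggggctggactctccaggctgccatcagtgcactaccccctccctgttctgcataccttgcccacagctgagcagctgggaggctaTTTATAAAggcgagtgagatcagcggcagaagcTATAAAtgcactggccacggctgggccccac
Srsf2: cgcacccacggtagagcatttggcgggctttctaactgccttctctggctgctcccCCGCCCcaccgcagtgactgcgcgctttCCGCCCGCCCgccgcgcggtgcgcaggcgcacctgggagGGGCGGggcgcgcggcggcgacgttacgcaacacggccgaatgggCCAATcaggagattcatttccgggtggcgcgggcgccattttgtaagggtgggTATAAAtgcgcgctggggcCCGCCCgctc
Hnrnpa0: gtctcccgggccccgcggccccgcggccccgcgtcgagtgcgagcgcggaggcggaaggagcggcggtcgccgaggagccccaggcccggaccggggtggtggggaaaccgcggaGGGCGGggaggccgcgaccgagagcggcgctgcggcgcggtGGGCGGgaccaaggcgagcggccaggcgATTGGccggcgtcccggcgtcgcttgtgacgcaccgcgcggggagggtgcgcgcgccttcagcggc
Hnrnpab: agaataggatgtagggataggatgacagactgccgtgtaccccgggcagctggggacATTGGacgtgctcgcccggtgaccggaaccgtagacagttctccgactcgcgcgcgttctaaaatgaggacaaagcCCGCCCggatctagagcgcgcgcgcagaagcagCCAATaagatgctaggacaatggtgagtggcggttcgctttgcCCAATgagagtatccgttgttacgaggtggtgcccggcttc

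The motifs searched were the TATA box (TATAAA), the CCAAT box (the letters of its name), the GC box (GGGCGG), the cyclic AMP response element (TGACGTCA), the ETS motif (CCGGAAG), the E-box (CACGTG), a heat shock element pair (GAANNTTC), the interferon-gamma-activated site (TTCNNNGAA) and the interferon-stimulated response element, where matches may overlap, as 2 TATA boxes do in the Srpk3 window. RefSeq windows were found for 39 of the 43 genes, 53 windows in all, but not for Clk1, Hnrnpll, Hnrnpul2 or Luc7l. The end of the Hnrnpab entry, past its start site, was not found in its GENCODE transcripts, while those of the other printed genes were. Members were richer in CpG than promoters in general, with a median of 23 CpG per window against 6 over 32851 mouse windows, and a median GC content of 64.4% against 52.4%. CCAAT was in a window of 8 of the 10 genes that were higher in both recipient groups and have a window there, and of 6 of the 16 that were lower in both, against 33.9% of all windows. The GC box was in 8 of those 10 and 14 of those 16 genes, against 32.7% of all windows. TGACGTCA was in the Clk4 and Tra2a windows and in no other member, against 1.55% of all windows. The interferon-stimulated response element was in a window of 0 of 39 members, against 2.98% of all windows. Some genes have more than 1 window, so counts of genes and shares of windows do not have the same base, and a match says only that the letters are there.

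Recipients of either graft were compared with untransplanted mice to ask how irradiation and transplantation change microglia. The kinase genes of the CLK family, the LUC7L genes and most SR protein genes were lower in recipients, by 11.1-fold and 11.2-fold for Clk1. In each recipient group 12 of the 20 hnRNP genes (60.0%) were higher, against 28.2% of all genes in allogeneic and 26.4% in syngeneic recipients. With library totals in place of TMM factors, 6 were higher in allogeneic and 10 in syngeneic recipients (19.3% and 21.4% of all genes). In allogeneic recipients against controls, 32 of the 42 tested genes were called at an adjusted p under 0.05 by edgeR's quasi-likelihood test, which is 76.2% against 57.3% of all 12695 genes tested. Of these, 13 (31.0%) were higher, against 28.2% of all genes, and 19 (45.2%) were lower, against 29.1% of all genes. In syngeneic recipients against controls, 30 of the 42 (71.4%) were called, against 52.1% of all genes, 12 of them higher (28.6%, against 26.4%) and 18 lower (42.9%, against 25.6%). The median log2 fold change of the members was -0.18 in allogeneic recipients (all genes -0.07) and -0.15 in syngeneic recipients (all genes -0.03). Allogeneic and control libraries did not overlap in 30 of the 42 (71.4%, against 53.8% of all genes), with 11 higher (26.2% of all genes) and 19 lower (27.7% of all genes). Syngeneic and control libraries did not overlap in 31 of the 42 (73.8%, against 50.0% of all genes), with 12 higher (24.6% of all genes) and 19 lower (25.5% of all genes). Both comparisons use the same 4 control libraries, so their likeness is no result, and values are given side by side. With library totals in place of TMM factors, the log2 fold changes of all genes moved to a median of -0.44 in allogeneic and -0.20 in syngeneic recipients against controls, and the members called became 6 higher and 24 lower in allogeneic (19.3% and 41.4% of all genes) and 10 higher and 20 lower in syngeneic recipients (21.4% and 31.3% of all genes). In sorted bulk samples, fewer cells of a type that carry a transcript and less of it per cell cannot be told apart.

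**Figure D1:**
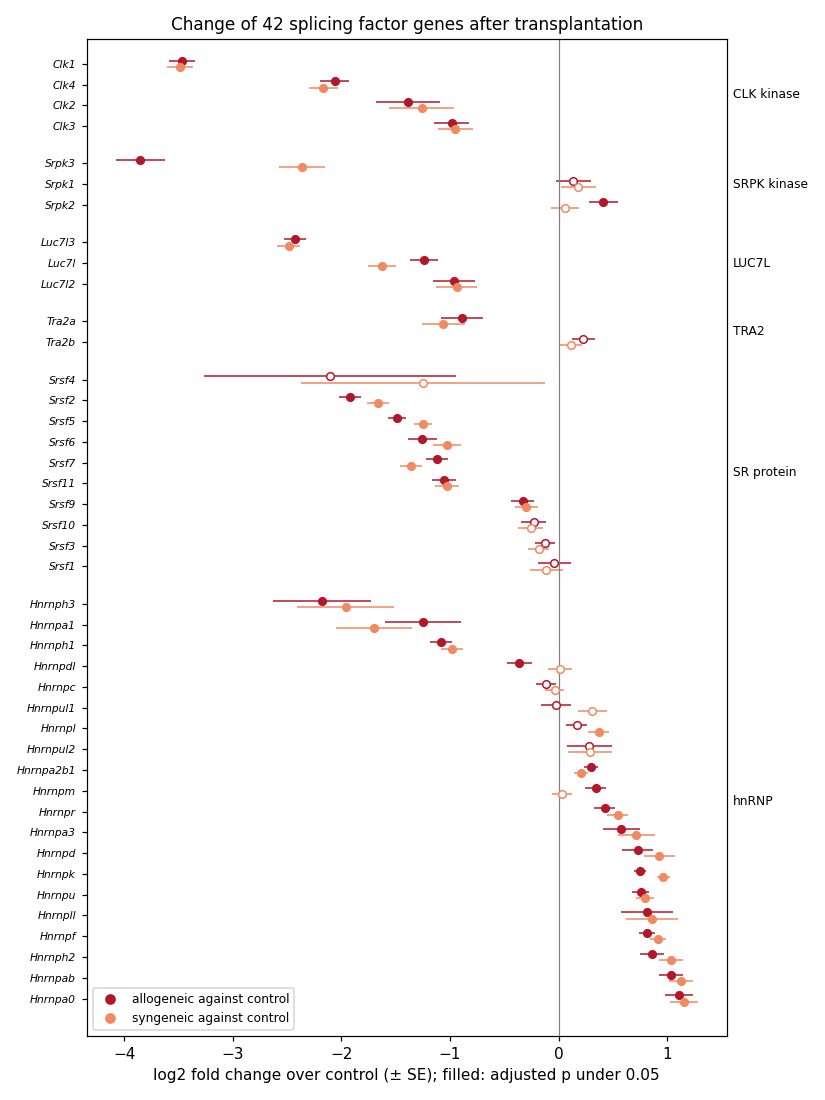
Log2 fold change over control (x axis, ± SE) of the 42 tested genes, grouped by family, in allogeneic recipients (red) and syngeneic recipients (orange). Filled points were called at an adjusted p under 0.05. All 4 CLK and all 3 LUC7L genes lie left of 0 in both recipient groups, and the filled points right of 0 are hnRNP genes and, in allogeneic recipients, Srpk2.

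All 4 CLK kinase genes fell in both recipient groups. Clk1, which phosphorylates SR proteins in the nucleus, had 34.01, 46.1, 49.4 and 37.2 CPM in allogeneic, 48.1, 39.3, 39.3 and 38.01 CPM in syngeneic, and 444, 455, 488 and 459.9 CPM in control libraries. Every recipient library lay below every control library. The fall was 11.1-fold in allogeneic (log2 fold change with its SE -3.47 ± 0.12, edgeR adjusted p = 4.02e-14) and 11.2-fold in syngeneic recipients (-3.49 ± 0.12, edgeR adjusted p = 2.37e-13). With a correction for GC content and transcript length (the GC and length offset), the log2 fold change of Clk1 was -4.11 in allogeneic and -3.95 in syngeneic recipients. By log2 fold change, Clk1 ranked 365 from the lowest of 12695 genes in allogeneic and 362 in syngeneic recipients.

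Clk4, the closest relative of Clk1, had 28.05, 21.1, 24.9 and 27.1 CPM in allogeneic, 25.9, 25.3, 21.4 and 21.3 CPM in syngeneic, and 98.04, 105, 125 and 94.5 CPM in control libraries. Here too the groups did not overlap, with falls of 4.17-fold in allogeneic (log2 -2.06 ± 0.13) and 4.49-fold in syngeneic recipients (-2.17 ± 0.13). Clk2 was the least abundant of the family by count, at 3.78, 3.55, 4.38 and 2.38 CPM in allogeneic, 3.63, 4.42, 4.16 and 3.16 CPM in syngeneic, and 9.22, 9.24, 8.15 and 10.3 CPM in control libraries. It was lower in every recipient library, by 2.61-fold in allogeneic (log2 -1.39 ± 0.30, edgeR adjusted p = 0.000624) and 2.40-fold in syngeneic recipients (edgeR adjusted p = 0.00158). Clk3 had 37.4, 35.1, 23.4 and 23.4 CPM in allogeneic, 27.02, 34.3, 29.1 and 31.5 CPM in syngeneic, and 55.7, 65.5, 61.9 and 52.8 CPM in control libraries. Its fall of 1.98-fold in allogeneic and 1.93-fold in syngeneic recipients was the smallest of the 4 (log2 -0.98 ± 0.16 in allogeneic and -0.95 ± 0.16 in syngeneic recipients). With the GC and length offset, Clk3 changed by -0.24 in allogeneic (edgeR adjusted p = 0.223) and -0.25 in syngeneic recipients (edgeR adjusted p = 0.199) on the log2 scale and was not called.

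The balance within the family moved with these unequal falls. There were 1.21 to 2.18 Clk1 counts per Clk4 count in allogeneic and 1.55 to 1.86 in syngeneic libraries, against 3.90 to 4.87 in control libraries. Summed over the 4 kinases, the level was 90.04 to 106 CPM in allogeneic and 94.03 to 105 CPM in syngeneic libraries, against 607 to 683 CPM in control libraries.

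The 3 SRPK genes, whose products act before the CLK kinases on the way of an SR protein into the nucleus, differed from each other. Srpk3, known mainly from heart and skeletal muscle in mice, had 3.91, 5.29, 3.89 and 3.18 CPM in allogeneic, 11.9, 8.19, 16.1 and 9.65 CPM in syngeneic, and 60.97, 64.96, 60.1 and 49.4 CPM in control libraries. No allogeneic library reached a syngeneic one, and no recipient library reached a control one. The fall was 14.5-fold in allogeneic (log2 -3.85 ± 0.23, edgeR adjusted p = 6.07e-11) and 5.15-fold in syngeneic recipients (-2.36 ± 0.21, edgeR adjusted p = 3.16e-08).

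Srpk2 had 63.5, 55.8, 72.4 and 66.2 CPM in allogeneic, 48.1, 50.2, 50.2 and 53.7 CPM in syngeneic, and 56.3, 37.4, 44.3 and 56.1 CPM in control libraries. The allogeneic and control ranges overlapped, and the rise of 1.33-fold in allogeneic recipients (log2 0.41 ± 0.13, edgeR adjusted p = 0.0132) was not called without control 2 (log2 0.29, edgeR adjusted p = 0.0608), with library totals only (log2 0.04, edgeR adjusted p = 0.81) or with the GC and length offset (log2 0.09, edgeR adjusted p = 0.632). In syngeneic recipients the log2 difference of Srpk2 from controls was 0.06 ± 0.13, which did not pass the test. Srpk1, the founding member of the family, had 27.8, 29.4, 32.9 and 26.96 CPM in allogeneic, 23.3, 32.1, 34.9 and 30.8 CPM in syngeneic, and 30.2, 20.3, 26.3 and 29.7 CPM in control libraries. Its groups overlapped and it did not pass the test, with 95% intervals of -0.23 to 0.50 in allogeneic and -0.18 to 0.55 in syngeneic recipients for the log2 difference from controls. There were 10.6 to 20.8 Srpk2 counts per Srpk3 count in allogeneic and 3.13 to 6.13 in syngeneic libraries, against 0.576 to 1.14 in control libraries.

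**Figure D2:**
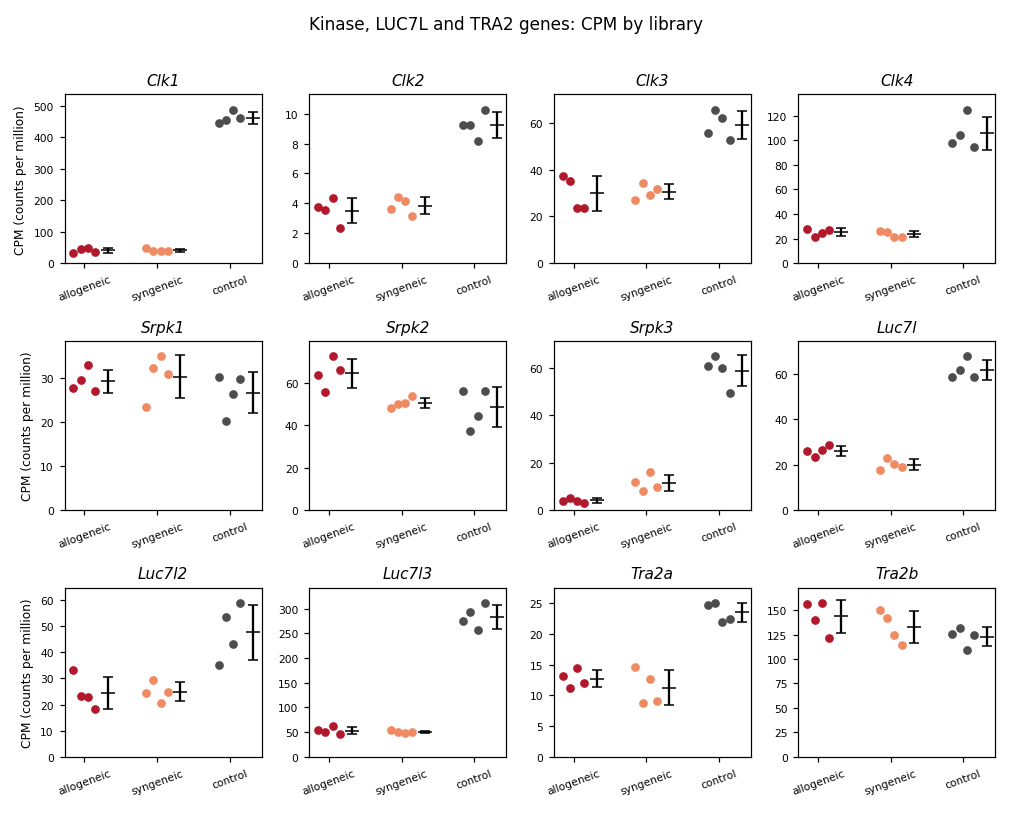
CPM (y axis, linear, from 0) of the kinase, LUC7L and TRA2 genes in each library, with allogeneic, syngeneic and control libraries from left to right. Points are libraries and bars show the mean ± SD (n = 4 each). Clk1 lies between 34.0 and 49.4 CPM in the 8 recipient libraries and between 444 and 488 CPM in the 4 control libraries, while the Srpk1 and Tra2b groups overlap.

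All 3 LUC7L genes fell in both recipient groups. Luc7l3 had 53.6, 49.9, 61.97 and 45.2 CPM in allogeneic, 53.6, 49.9, 48.2 and 50.8 CPM in syngeneic, and 274, 294, 256 and 312 CPM in control libraries. Its fall was 5.39-fold in allogeneic (log2 -2.43 ± 0.10, edgeR adjusted p = 5.39e-13) and 5.61-fold in syngeneic recipients (-2.49 ± 0.10, edgeR adjusted p = 2.99e-12). Luc7l had 25.9, 23.5, 26.4 and 28.9 CPM in allogeneic, 17.7, 23.1, 20.4 and 18.9 CPM in syngeneic, and 58.5, 61.99, 67.9 and 58.6 CPM in control libraries. It stood 2.36-fold lower in allogeneic and 3.08-fold lower in syngeneic recipients, without overlap with controls. Luc7l2 had 33.2, 23.3, 22.96 and 18.5 CPM in allogeneic, 24.5, 29.5, 20.6 and 24.9 CPM in syngeneic, and 35.1, 53.5, 43.3 and 58.96 CPM in control libraries. The highest recipient value of Luc7l2 lay just under the lowest control value, with log2 fold changes of -0.96 ± 0.19 in allogeneic and -0.94 ± 0.19 in syngeneic recipients.

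The TRA2 pair, SR-like activators of exon inclusion, parted. Tra2a had 13.1, 11.2, 14.5 and 12.04 CPM in allogeneic, 14.6, 8.81, 12.6 and 9.02 CPM in syngeneic, and 24.7, 25.1, 21.98 and 22.4 CPM in control libraries. All recipient libraries were below all control libraries, by 1.85-fold in allogeneic (edgeR adjusted p = 0.000821) and 2.09-fold in syngeneic recipients (edgeR adjusted p = 0.000187). Tra2b had 156, 139.9, 157 and 121 CPM in allogeneic, 150.3, 142, 125 and 114 CPM in syngeneic, and 126, 132, 109 and 124 CPM in control libraries. Its groups overlapped and it did not pass the test in either comparison, with log2 differences of 0.23 ± 0.10 in allogeneic and 0.11 ± 0.10 in syngeneic recipients. In allogeneic recipients it was called higher by DESeq2 (adjusted p = 0.0347), with RLE factors (edgeR adjusted p = 0.0422) and without allogeneic 4 (edgeR adjusted p = 0.0231). There were 10.1 to 12.5 Tra2b counts per Tra2a count in allogeneic and 9.92 to 16.1 in syngeneic libraries, against 4.97 to 5.56 in control libraries. Tra2b shares part of its sequence with other annotated genes, so its counts are uncertain.

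Of the 10 SR protein genes tested, 6 fell and 0 rose in both recipient groups. The 6 were Srsf2, Srsf5, Srsf6, Srsf7, Srsf9 and Srsf11. They make 60.0% lower, against 29.1% of all genes in allogeneic and 25.6% in syngeneic recipients. Of all genes, 28.2% were higher in allogeneic and 26.4% in syngeneic recipients. Srsf2, a marker protein of nuclear speckles, had 56.9, 47.9, 63.1 and 50.3 CPM in allogeneic, 62.99, 68.6, 61.3 and 68.005 CPM in syngeneic, and 218, 216, 181 and 211 CPM in control libraries. Its fall was 3.79-fold in allogeneic (log2 -1.92 ± 0.10, edgeR adjusted p = 1.45e-11) and 3.17-fold in syngeneic recipients (-1.66 ± 0.10, edgeR adjusted p = 2.42e-10). Srsf5 had 199, 222, 228 and 266 CPM in allogeneic, 292, 278, 242 and 267 CPM in syngeneic, and 633, 641, 641 and 649 CPM in control libraries. The control libraries lay close together and far above every recipient library, with falls of 2.80-fold in allogeneic (log2 -1.49 ± 0.08) and 2.38-fold in syngeneic recipients (-1.25 ± 0.08). The GC and length offset gave Srsf5 log2 fold changes of -2.16 in allogeneic and -1.74 in syngeneic recipients.

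Srsf7, which also hands mature messenger RNA to the export receptor Nxf1, had 203, 174, 248 and 176 CPM in allogeneic, 191, 163, 161 and 163 CPM in syngeneic, and 469, 439.6, 428 and 403 CPM in control libraries. Its falls were 2.17-fold in allogeneic (log2 -1.12 ± 0.10) and 2.57-fold in syngeneic recipients (-1.36 ± 0.10), and with the GC and length offset log2 -1.96 in allogeneic and -1.91 in syngeneic recipients, which turns the order of the recipient groups. Srsf6 had 39.9, 49.5, 39.3 and 41.4 CPM in allogeneic, 49.1, 61.2, 41.5 and 47.3 CPM in syngeneic, and 91.3, 120.0, 98.2 and 96.3 CPM in control libraries. The falls of Srsf6 were 2.39-fold in allogeneic (log2 -1.25 ± 0.13) and 2.04-fold in syngeneic recipients (-1.03 ± 0.13). Srsf11, whose protein binds the U2AF factor at the end of introns, had 59.2, 46.2, 44.1 and 47.3 CPM in allogeneic, 48.6, 51.9, 46.9 and 53.6 CPM in syngeneic, and 102, 115, 91.8 and 101 CPM in control libraries. It fell by 1.06 in allogeneic and by 1.03 in syngeneic recipients on the log2 scale, again with no overlap between recipient and control libraries.

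Srsf9 showed a smaller difference, with means of 66.7 ± 4.65 CPM in allogeneic, 68.3 ± 5.002 CPM in syngeneic and 83.97 ± 9.75 CPM in control libraries (SD, n = 4 each). Its call in syngeneic recipients (log2 -0.30 ± 0.10, edgeR adjusted p = 0.0234) was lost with the GC and length offset and without syngeneic 2, syngeneic 4, control 1 or control 2 (edgeR adjusted p = 0.0529 to 0.313). Srsf1, the founding SR protein, Srsf3, Srsf4 and Srsf10 did not pass the test against controls in either recipient group in the reported fit. Their means were 48.2 ± 10.3 CPM, 210.1 ± 31.6 CPM, 0.296 ± 0.199 CPM and 118 ± 19.998 CPM in allogeneic libraries. In syngeneic libraries the means were 45.8 ± 5.75 CPM, 201 ± 18.3 CPM, 0.539 ± 0.485 CPM and 115 ± 15.9 CPM, and in control libraries they were 49.6 ± 5.63 CPM, 229 ± 6.13 CPM, 1.29 ± 0.265 CPM and 138 ± 7.43 CPM, in that order of genes. Srsf4 reached no more than 1.55 CPM in any library, and its allogeneic libraries, at 0 to 0.429 CPM, lay below its control libraries, at 1.009 to 1.55 CPM, though the difference did not pass the test (edgeR adjusted p = 0.131).

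The SR genes as a sum stood at 938 to 1105 CPM in allogeneic and 953 to 1095 CPM in syngeneic libraries, against 1925 to 2057 CPM in control libraries. With the GC and length offset, 8 of the 10 SR genes were called lower and 0 higher in both recipient groups, where 25.6% of all genes were lower and 26.3% higher in allogeneic and 21.1% lower and 25.5% higher in syngeneic recipients. Srsf3 and Srsf10 gained their call there, with log2 fold changes of -0.51 and -0.51 in allogeneic and -0.47 and -0.50 in syngeneic recipients. Both were also called lower in both groups with library totals only. The 8 were not the same genes in both groups. In syngeneic recipients Srsf1 also gained a lower call with the offset, while Srsf9 lost its call. Srsf3, Srsf5 and Srsf10 share sequence with other annotated genes, and their counts are uncertain to that extent. The pair Srsf3 and Srsf7, whose proteins are close relatives, changed unequally, with 0.997 to 1.19 Srsf3 counts per Srsf7 count in allogeneic and 1.11 to 1.37 in syngeneic libraries, against 0.494 to 0.576 in control libraries.

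**Figure D3:**
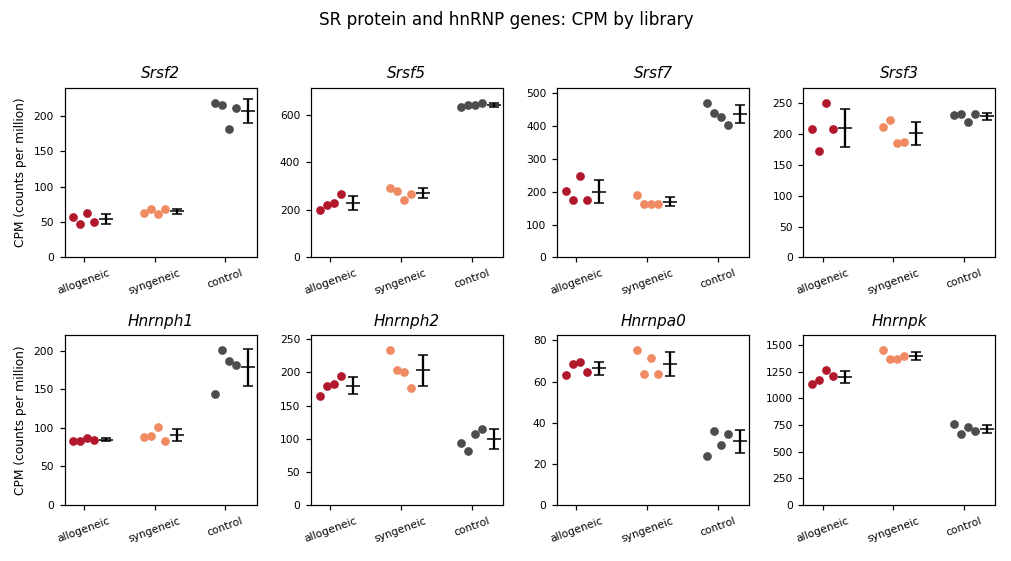
CPM (y axis, linear, from 0) of 4 SR protein genes (upper row) and 4 hnRNP genes (lower row) in each library, with allogeneic, syngeneic and control libraries from left to right. Points are libraries and bars show the mean ± SD (n = 4 each). Srsf2, Srsf5, Srsf7 and Hnrnph1 lie lower in recipients than in controls, Srsf3 overlaps, and Hnrnph2, Hnrnpa0 and Hnrnpk lie higher.

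Most hnRNP genes were higher in recipients with TMM factors. Of the 20 tested, 12 rose and 4 fell in allogeneic recipients, and 12 rose and 3 fell in syngeneic recipients. With library totals only, these counts were 6 and 6 in allogeneic recipients (19.3% and 41.4% of all genes). They were 10 and 3 in syngeneic recipients (21.4% and 31.3% of all genes). With the GC and length offset the counts were 10 and 6 in allogeneic recipients (26.3% and 25.6% of all genes). They were 10 and 5 in syngeneic recipients (25.5% and 21.1% of all genes). Hnrnpk, which binds cytosine-rich RNA and DNA and had the most counts of the members, had 1137, 1175, 1271 and 1213 CPM in allogeneic, 1451, 1369.5, 1366 and 1395 CPM in syngeneic, and 760.1, 669.6, 732 and 696 CPM in control libraries. Each recipient library lay above each control library, with rises of 1.68-fold in allogeneic (log2 0.75 ± 0.06, edgeR adjusted p = 3.17e-09) and 1.95-fold in syngeneic recipients (0.97 ± 0.06, edgeR adjusted p = 2.17e-10). Hnrnpa0, an AU-rich element binding protein, had 62.97, 68.8, 69.4 and 64.6 CPM in allogeneic, 75.2, 63.9, 71.4 and 63.5 CPM in syngeneic, and 23.6, 35.97, 29.3 and 34.5 CPM in control libraries. It rose 2.16-fold in allogeneic and 2.22-fold in syngeneic recipients. Hnrnpab had 60.2, 55.8, 70.04 and 67.6 CPM in allogeneic, 61.6, 68.1, 66.5 and 74.1 CPM in syngeneic, and 29.6, 30.8, 32.8 and 30.6 CPM in control libraries. Recipient and control libraries did not overlap, and the rise was 2.05-fold in allogeneic and 2.18-fold in syngeneic recipients.

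Hnrnpf, which binds runs of guanines, had 172, 161, 167 and 179 CPM in allogeneic, 190.1, 178, 175 and 186 CPM in syngeneic, and 97.8, 98.8, 100.1 and 89.5 CPM in control libraries. It rose 1.76-fold in allogeneic (edgeR adjusted p = 2.83e-08) and 1.89-fold in syngeneic recipients (edgeR adjusted p = 9.37e-09). Hnrnpu, a scaffold protein that ties RNA to chromatin, had 246, 239, 287 and 255 CPM in allogeneic, 279, 272, 248 and 257 CPM in syngeneic, and 141, 160.4, 141 and 166 CPM in control libraries. Its rises of 1.69-fold in allogeneic and 1.74-fold in syngeneic recipients also left no overlap with controls.

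The H subfamily split. Hnrnph1 had 82.8, 83.1, 87.1 and 83.5 CPM in allogeneic, 87.4, 89.6, 101 and 82.9 CPM in syngeneic, and 144, 200.2, 187 and 181 CPM in control libraries. Hnrnph2, its X-linked relative, had 164, 180.0, 182 and 195 CPM in allogeneic, 233, 203, 201 and 176 CPM in syngeneic, and 93.3, 81.6, 107 and 115 CPM in control libraries. Hnrnph1 fell by 1.08 in allogeneic and by 0.98 in syngeneic recipients on the log2 scale, while Hnrnph2 rose by 0.86 in allogeneic and by 1.04 in syngeneic recipients. There were 1.98 to 2.33 Hnrnph2 counts per Hnrnph1 count in allogeneic and 1.99 to 2.67 in syngeneic libraries, against 0.408 to 0.647 in control libraries. Hnrnph3, the third of them, was scarce and fell to 1.47 ± 0.660 CPM in allogeneic and 1.71 ± 0.337 CPM in syngeneic libraries, against 6.68 ± 1.87 CPM in control libraries (SD, n = 4 each).

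In the reported fit the A and B proteins also parted, though Hnrnpa2b1 and Hnrnpa3 did not stay higher in every setting. Hnrnpa1, a classic repressor of exons, fell to 2.71 ± 0.330 CPM in allogeneic and 1.99 ± 0.170 CPM in syngeneic libraries, against 6.45 ± 0.605 CPM in control libraries. Of its 50-base stretches, 46.4% also occur in other annotated genes, so its counts are uncertain. Hnrnpa2b1, which also sorts small and messenger RNAs, averaged 532 ± 27.99 CPM in allogeneic and 499.5 ± 11.2 CPM in syngeneic libraries, against 433 ± 30.9 CPM in control libraries. It was called higher in both (log2 0.30 ± 0.07 in allogeneic and 0.21 ± 0.07 in syngeneic recipients). With the GC and length offset it was called lower in allogeneic (log2 -0.30, edgeR adjusted p = 0.000588) and syngeneic recipients (log2 -0.23, edgeR adjusted p = 0.00538), so its direction depended on the setting. Hnrnpa3, where 91.0% of 50-base stretches are shared, was called higher at log2 0.58 ± 0.17 in allogeneic and 0.72 ± 0.17 in syngeneic recipients, and the offset gave log2 -0.03 in allogeneic and 0.28 in syngeneic recipients with no call.

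The other hnRNP genes called higher in both recipient groups were Hnrnpd, an AU-rich element binding protein of messenger RNA decay, Hnrnpr and Hnrnpll, with log2 fold changes of 0.42 to 0.81 in allogeneic and 0.55 to 0.93 in syngeneic recipients. Hnrnpr lost its call with the offset in allogeneic (edgeR adjusted p = 0.191) and syngeneic recipients (edgeR adjusted p = 0.192), and Hnrnpll in allogeneic recipients (edgeR adjusted p = 0.0573). Hnrnpl, which binds CA repeats, rose in syngeneic recipients (log2 0.37 ± 0.10, edgeR adjusted p = 0.0033), while in allogeneic recipients Hnrnpm rose (log2 0.34 ± 0.09) and Hnrnpdl fell (log2 -0.36 ± 0.11). In allogeneic recipients Hnrnpl was not called in the reported fit (log2 0.165 ± 0.096, edgeR adjusted p = 0.152). With the offset it was called higher there. With library totals only, Hnrnpd, Hnrnpr, Hnrnpll, Hnrnpm and Hnrnpa3 were not called in allogeneic recipients (log2 -0.03 to 0.45, edgeR adjusted p = 0.0521 to 0.791), nor Hnrnpl in syngeneic recipients (log2 0.20, edgeR adjusted p = 0.083). Hnrnpc, Hnrnpul1 and Hnrnpul2 did not pass the test against controls in either recipient group, with means of 123 ± 11.5 CPM, 31.9 ± 2.02 CPM and 18.99 ± 1.59 CPM in allogeneic libraries, 130.1 ± 11.4 CPM, 40.3 ± 2.06 CPM and 19.02 ± 4.97 CPM in syngeneic libraries, and 133 ± 8.43 CPM, 32.5 ± 5.35 CPM and 15.6 ± 2.98 CPM in control libraries. With the offset Hnrnpc was called lower (log2 -0.47 in allogeneic and -0.31 in syngeneic recipients) and Hnrnpul1 higher (0.47 in allogeneic and 0.74 in syngeneic recipients), while library totals gave Hnrnpul1 a lower call in allogeneic recipients (-0.40). Summed hnRNP levels were 3211 to 3484 CPM in allogeneic and 3496 to 3687 CPM in syngeneic libraries, against 2362 to 2476 CPM in control libraries. Hnrnpc, Hnrnpf, Hnrnph2 and Hnrnpk share sequence with other annotated genes, Hnrnpm overlaps March2 on its own strand, and Hnrnpab, Hnrnpk, Srpk2 and Clk3 overlap a gene on the other strand, so their counts are uncertain where the counting did not separate them.

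The order of the members by level differed between recipient and control libraries. For this order CPM was divided by the length of 1 transcript per gene. Per kilobase, the first 5 in allogeneic libraries were Hnrnpk (443 ± 21.2 CPM per kb), Hnrnpa2b1 (320.4 ± 16.8), Srsf7 (192 ± 33.2), Srsf5 (146 ± 17.6) and Srsf3 (80.3 ± 12.1). In syngeneic libraries they were Hnrnpk (516 ± 14.5 CPM per kb), Hnrnpa2b1 (301 ± 6.74), Srsf5 (172 ± 13.4), Srsf7 (163 ± 13.8) and Hnrnph2 (83.9 ± 9.69). In control libraries they were Srsf7 (418 ± 26.4 CPM per kb), Srsf5 (409 ± 4.31), Hnrnpk (264 ± 14.7), Hnrnpa2b1 (260.5 ± 18.6) and Clk1 (257 ± 10.4). Neighbours in that control order differed by less than the larger of their SDs, within the pair Srsf7 and Srsf5 and among Hnrnpk, Hnrnpa2b1 and Clk1. The same held in syngeneic libraries for Srsf5 and Srsf7, and for the fifth place in both recipient groups, where Srsf3, Hnrnpf and Hnrnph2 lay at 80.3 ± 12.1, 74.5 ± 3.39 and 74.2 ± 5.25 CPM per kb in allogeneic and 76.95 ± 6.98, 79.98 ± 3.03 and 83.9 ± 9.69 CPM per kb in syngeneic libraries. Clk1 stood at 23.2 ± 4.06 CPM per kb in allogeneic and 22.9 ± 2.59 CPM per kb in syngeneic libraries. The order depends on the length taken for each gene, such as 1040 bases for Srsf7. Without division by length, Srsf7 was not first in control libraries. The control means were 714 CPM for Hnrnpk, 641 CPM for Srsf5, 461 CPM for Clk1 and 435 CPM for Srsf7.

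The comparison of the 2 recipient groups asks what graft-versus-host disease adds to irradiation and transplantation. Few of the genes differed. Of the 42 tested, 5 were called (11.9%, against 16.5% of all genes), 2 higher (4.76%, against 10.1%) and 3 lower (7.14%, against 6.38%). The count of 2 higher was 0 or 1 when any 1 library other than allogeneic 2 was left out. Srpk3 was 2.81-fold lower in allogeneic recipients (log2 -1.49 ± 0.21, edgeR adjusted p = 4.35e-05), at 4.07 ± 0.882 CPM in allogeneic and 11.4 ± 3.44 CPM in syngeneic libraries (SD, n = 4 each). It was called in each of 22 alternative fits, with log2 fold changes of -1.69 to -1.28. Hnrnpk was lower in all 4 allogeneic libraries than in any syngeneic one (log2 -0.22 ± 0.06, edgeR adjusted p = 0.0127), and this call also held in each of the 22.

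Hnrnpdl, a relative of Hnrnpd, had 70.3, 91.99, 106 and 73.8 CPM in allogeneic, 114, 114, 104 and 112 CPM in syngeneic, and 112, 101, 109 and 117 CPM in control libraries. Allogeneic 3 reached the syngeneic range, and the other 3 allogeneic libraries lay below it (log2 -0.38 ± 0.11, edgeR adjusted p = 0.0285). Without allogeneic 1, allogeneic 4, syngeneic 1 or syngeneic 2 it was not called (edgeR adjusted p = 0.0659 to 0.0963). Hnrnpm had 226, 205, 234 and 198 CPM in allogeneic, 181, 172, 162 and 180.4 CPM in syngeneic, and 162, 143, 199.7 and 177 CPM in control libraries. Its allogeneic libraries all lay above its syngeneic ones (log2 0.31 ± 0.09, edgeR adjusted p = 0.0283), but 5 of the 12 fits that leave out 1 library did not call it, those without allogeneic 1, allogeneic 3, syngeneic 2, syngeneic 3 or syngeneic 4 (edgeR adjusted p = 0.0557 to 0.0912). Luc7l was higher (log2 0.39 ± 0.13, edgeR adjusted p = 0.0468), and 15 of the 22 alternatives did not call it. Among these were the 10 fits that leave out 1 library other than allogeneic 2 or syngeneic 2 (edgeR adjusted p = 0.0584 to 0.126). Srpk2 was higher in all 4 allogeneic libraries than in any syngeneic one but was not called (log2 0.35 ± 0.13, edgeR adjusted p = 0.0811), while a fit on the 2 groups alone called it (edgeR adjusted p = 0.0434), as did the GC and length offset at the edge of the threshold (log2 0.43).

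The CLK genes did not pass the test between the recipient groups. The 95% interval of the log2 difference was -0.23 to 0.27 for Clk1, -0.79 to 0.54 for Clk2, -0.39 to 0.33 for Clk3 and -0.18 to 0.40 for Clk4. Of the 4, 0 had an unadjusted p under 0.05, and DESeq2 called 0, against 19.3% of all genes. Of the 10 SR genes, 0 were called by edgeR (16.5% of all genes) and 1, Srsf5, by DESeq2 (19.3% of all genes). An unadjusted p under 0.05 was found for 3 of them (Srsf2, Srsf5 and Srsf7). The log2 fold changes of the SR genes were -0.86 for the scarce Srsf4 and -0.26 to 0.24 for the others. Srsf5 (log2 -0.24, edgeR adjusted p = 0.0517) was called lower in 8 of the 22 alternatives. Srsf2 (log2 -0.26, edgeR adjusted p = 0.0876) was called lower in 4 of the 22. The GC and length offset called both. With library totals only, all genes shifted by -0.22 and 14 members were called lower and 0 higher, against 16.6% and 6.65% of all genes. The 4 allogeneic libraries lay wholly above the syngeneic ones in 4 genes (12.6% of all genes) and wholly below in 4 (8.1% of all genes), together 19.0% of the 42 against 20.7% of all genes tested. Those above were Hnrnpm, Luc7l, Srpk2 and Hnrnpa1, and those below were Srpk3, Hnrnpk, Hnrnpd and Hnrnpul1. The monocyte and engrafted macrophage markers given above differed between these groups in the sorted cells, and their part in the differences was not tested.

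**Figure D4:**
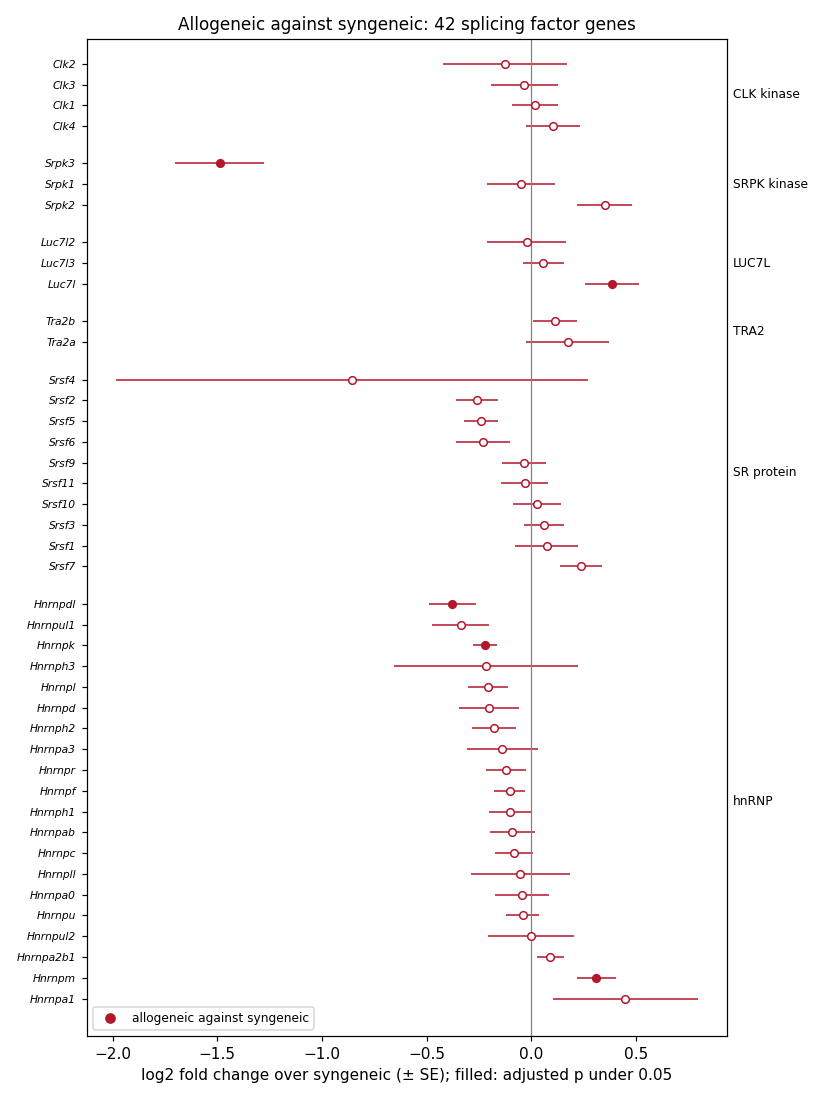
Log2 fold change of allogeneic over syngeneic recipients (x axis, ± SE) of the 42 tested genes, grouped by family. Filled points were called at an adjusted p under 0.05. Srpk3 lies apart at -1.49, and the other 4 called genes lie between -0.38 and 0.39.

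The rest of the splicing machinery was read from gene lists. A pair of percentages of all genes gives those called higher and then lower. Under library totals alone these were 19.3% and 41.4% in allogeneic and 21.4% and 31.3% in syngeneic recipients against controls, and 6.65% and 16.6% in allogeneic against syngeneic recipients. Among 29 SR-related and speckle genes, 18 were called lower and 5 higher in allogeneic recipients against controls, and 16 lower and 4 higher in syngeneic recipients (17.2% higher and 62.1% lower, against 28.2% and 29.1% of all genes in allogeneic, and 13.8% higher and 55.2% lower, against 26.4% and 25.6% of all genes in syngeneic recipients), with median log2 fold changes of -0.80 in allogeneic and -0.77 in syngeneic recipients. Library totals alone gave 23 lower and 0 higher in allogeneic recipients. Pnisr, an SR-related protein gene, stood at 24.4 ± 3.61 CPM in allogeneic and 21.5 ± 5.25 CPM in syngeneic libraries, against 220.3 ± 16.6 CPM in control libraries. Arglu1, another SR-related factor, changed by -2.10 ± 0.11 in allogeneic and -2.15 ± 0.11 in syngeneic recipients on the log2 scale. In allogeneic against syngeneic recipients 0 of the 29 were called by edgeR or DESeq2, against 16.5% and 19.3% of all genes. Of the 29, 4 had an unadjusted p under 0.05, and 8 were called lower with library totals only.

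Among 39 other regulators, 16 rose and 16 fell in allogeneic recipients and 14 rose and 15 fell in syngeneic recipients against controls, and 8 rose and 19 fell in allogeneic recipients with library totals only. These shares were 41.0% higher and 41.0% lower, against 28.2% and 29.1% of all genes in allogeneic, and 35.9% higher and 38.5% lower, against 26.4% and 25.6% of all genes in syngeneic recipients. Rbm5, a splicing regulator of cell death genes in humans, fell to 82.2 ± 6.27 CPM in allogeneic and 76.3 ± 8.27 CPM in syngeneic libraries, against 817 ± 99.2 CPM in control libraries. Rbm39, an SR-related coactivator, changed by -1.94 ± 0.09 in allogeneic and -1.98 ± 0.09 in syngeneic recipients on the log2 scale. Between the recipient groups 3 were higher and 8 lower in allogeneic recipients (7.69% higher and 20.5% lower, against 10.1% and 6.38% of all genes), and 0 higher and 13 lower with library totals only. Those with the smallest p were Qk (quaking, log2 -0.59 ± 0.10) and Cirbp (a cold-inducible RNA-binding protein, -0.94 ± 0.17).

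The Sm core proteins, which form the ring around spliceosomal RNAs, went up. Of 7 tested, 5 rose and 0 fell in each recipient group against controls (5 and 1 in allogeneic recipients with library totals only), with median log2 fold changes of 1.36 in allogeneic and 0.95 in syngeneic recipients. The shares were 71.4% higher and 0% lower, against 28.2% and 29.1% of all genes in allogeneic, and 71.4% higher and 0% lower, against 26.4% and 25.6% of all genes in syngeneic recipients. Snrpd3 rose to 183 ± 6.92 CPM in allogeneic and 147 ± 4.70 CPM in syngeneic libraries, against 63.4 ± 5.30 CPM in control libraries. Snrpg was also higher in allogeneic than in syngeneic recipients (log2 0.64 ± 0.10), where 4 of the 7 were called higher and 0 lower (against 10.1% and 6.38% of all genes), and 1 higher and 1 lower with library totals only. Among 19 genes of the U1 and U2 particles and SF3 complex, 6 rose and 10 fell in allogeneic recipients and 6 rose and 8 fell in syngeneic recipients, and with the GC and length offset these counts were 3 and 6 in allogeneic and 8 and 5 in syngeneic recipients. Without the offset the shares were 31.6% higher and 52.6% lower, against 28.2% and 29.1% of all genes in allogeneic, and 31.6% higher and 42.1% lower, against 26.4% and 25.6% of all genes in syngeneic recipients. Snrnp70, the U1 protein that meets SR proteins at the donor site, changed by -2.02 ± 0.18 in allogeneic and -2.14 ± 0.18 in syngeneic recipients on the log2 scale. Of the 19, 2 fell in allogeneic against syngeneic recipients, Sf3b4 (log2 -0.44 ± 0.13) and Sf1 (log2 -0.34 ± 0.10), and 7 fell with library totals only. With TMM factors the shares between the recipient groups were 0% higher and 10.5% lower, against 10.1% and 6.38% of all genes. Sf3b4 lost its call without allogeneic 1, allogeneic 2, syngeneic 2 or syngeneic 4 (edgeR adjusted p up to 0.0828), and Sf1 in 9 of the 22 alternatives, those without allogeneic 1, allogeneic 2, allogeneic 4, syngeneic 3 or syngeneic 4 among them (adjusted p up to 0.102).

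Among 29 genes of the tri-snRNP and the NTC, the complex that activates the spliceosome, 10 rose and 11 fell in allogeneic recipients and 11 rose and 9 fell in syngeneic recipients (34.5% higher and 37.9% lower, against 28.2% and 29.1% of all genes in allogeneic, and 37.9% higher and 31.0% lower, against 26.4% and 25.6% of all genes in syngeneic recipients). Under library totals alone, 4 rose and 16 fell in allogeneic and 8 rose and 12 fell in syngeneic recipients. Prpf38b changed by -2.24 ± 0.20 in allogeneic and -2.68 ± 0.21 in syngeneic recipients on the log2 scale. Its relative Prpf38a was the 1 gene called between the recipient groups, higher in allogeneic recipients (log2 0.69 ± 0.15). That is 3.45% higher and 0% lower, against 10.1% and 6.38% of all genes. Of 16 genes of SR phosphorylation and RNA transport, 7 rose and 6 fell in allogeneic and 6 rose and 5 fell in syngeneic recipients against controls, and 2 rose and 7 fell in allogeneic recipients with library totals only. The shares were 43.8% higher and 37.5% lower, against 28.2% and 29.1% of all genes in allogeneic, and 37.5% higher and 31.2% lower, against 26.4% and 25.6% of all genes in syngeneic recipients. Ppp1cb, a catalytic subunit of protein phosphatase 1, rose by 1.13 ± 0.09 in allogeneic and 1.195 ± 0.09 in syngeneic recipients on the log2 scale, and Nxf1, the export receptor that SR proteins recruit, changed by -1.70 ± 0.14 in allogeneic and -1.66 ± 0.14 in syngeneic recipients on the log2 scale. In allogeneic against syngeneic recipients 1 was higher and 2 were lower (6.25% and 12.5%, against 10.1% and 6.38% of all genes). With library totals only, 0 were higher and 5 lower. Among 17 genes of nonsense-mediated decay and the exon junction complex, 4 rose and 7 fell in allogeneic and 4 rose and 9 fell in syngeneic recipients against controls, and 1 rose and 1 fell in allogeneic against syngeneic recipients. Under library totals alone, 1 rose and 10 fell in allogeneic recipients against controls and 0 rose and 6 fell in allogeneic against syngeneic recipients. With TMM factors the shares were 23.5% higher and 41.2% lower, against 28.2% and 29.1% of all genes in allogeneic, and 23.5% higher and 52.9% lower, against 26.4% and 25.6% of all genes in syngeneic recipients, and 5.88% higher and 5.88% lower, against 10.1% and 6.38% of all genes between the recipient groups. Casc3, an exon junction protein, changed by -1.40 ± 0.15 in allogeneic and -1.003 ± 0.15 in syngeneic recipients on the log2 scale.

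**Figure D5:**
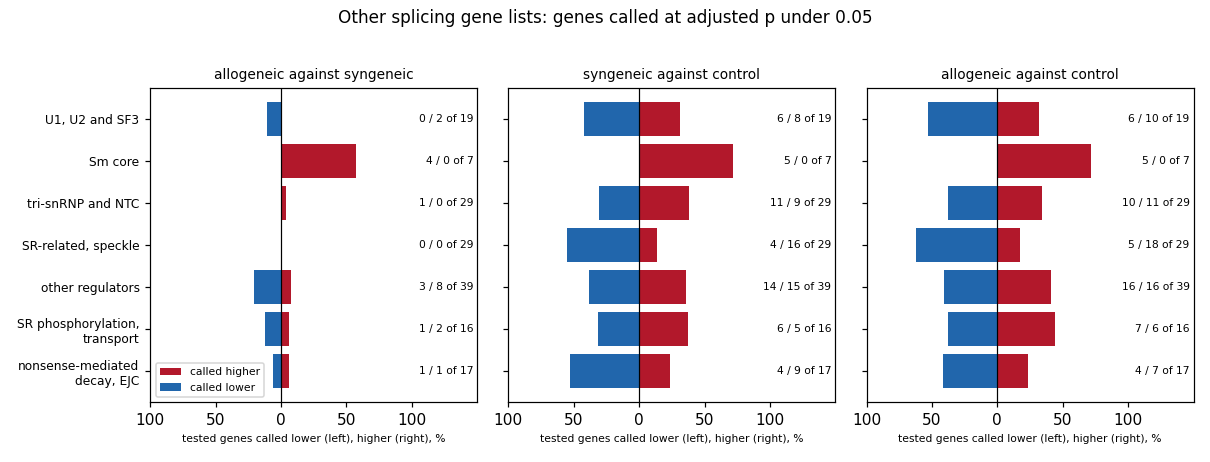
Share of the tested genes of 7 other splicing lists that were called lower (blue, left) or higher (red, right) at an adjusted p under 0.05 (x axis, %), in each comparison. The numbers give genes higher, genes lower and genes tested. The SR-related and speckle list holds 18 genes lower in allogeneic and 16 lower in syngeneic recipients against controls, and the Sm core list 5 higher in each.

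Of 4 tested nuclear long noncoding RNAs, 3 (Malat1, Neat1 and Kcnq1ot1) were lower in both recipient groups against controls. The other, Meg3, was called higher in syngeneic recipients (2.90 ± 1.12 on the log2 scale, edgeR adjusted p = 0.0375) but did not pass the test in allogeneic recipients (2.57 ± 1.11, edgeR adjusted p = 0.0561). Meg3 was scarce and variable, at 2.93 ± 2.25 CPM in allogeneic and 3.69 ± 4.39 CPM in syngeneic libraries, against 0.489 ± 0.505 CPM in control libraries, and its call was lost with library totals only, no filter, limma-voom or the replicate block, and without syngeneic 1, syngeneic 4, control 1, control 2 or control 4. Over the 4 RNAs the comparisons with controls had median log2 fold changes of -4.61 in allogeneic and -4.46 in syngeneic recipients, and 0 of 4 were called between the recipient groups by edgeR or DESeq2, with 0 at an unadjusted p under 0.05. Malat1, a speckle RNA, stood at 82.5 ± 35.1 CPM in allogeneic and 69.01 ± 36.1 CPM in syngeneic libraries, against 5809.5 ± 882 CPM in control libraries (SD, n = 4 each). Kcnq1ot1 changed by -3.85 ± 0.44 in allogeneic and -4.28 ± 0.45 in syngeneic recipients on the log2 scale. Over the 22 alternatives the log2 fold change of Malat1 ran from -7.19 to -5.93 in allogeneic and from -7.09 to -6.15 in syngeneic recipients. Any part of nuclear RNA content in the falls of Clk1, Luc7l3 and the SR protein genes was not tested. Of 16 immediate early and cell dissociation genes, 3 rose and 3 fell in allogeneic and 2 rose and 3 fell in syngeneic recipients against controls, and 2 rose and 1 fell in allogeneic against syngeneic recipients. Of 10 heat shock genes, 6 rose and 2 fell in allogeneic and 4 rose and 2 fell in syngeneic recipients against controls, and 4 rose and 0 fell in allogeneic against syngeneic recipients. Of all genes, 28.2% and 29.1% were higher and lower in allogeneic and 26.4% and 25.6% in syngeneic recipients against controls, and 10.1% and 6.38% in allogeneic against syngeneic recipients. With library totals only, 0 immediate early genes rose and 4 fell, and 4 heat shock genes rose and 4 fell, in allogeneic recipients against controls. Their part in the changes of splicing factor genes was not tested either.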

How the data were processed

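Per the labels' protocols, mice were perfused, microglia were sorted by FACS, and RNA (Picopure extraction, integrity of at least 8) went into standard Illumina libraries. Per the submitters' processing notes, Trimmomatic 0.36, STAR 2.5.2b and the build mm9 were used. The sources used here do not give the counting tool, annotation or strand setting. The authors deposited 1 table of raw counts of 24328 genes in 12 libraries. The labels name separate mice.

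Genes were kept by filterByExpr with a minimum count of 10 (12695 tested of 18018 with any count) and fitted with edgeR 4.0.16 (TMM factors, robust quasi-likelihood test, 1 mean per group over the 12 libraries) in R 4.3.3. P-values were adjusted by Benjamini-Hochberg over all genes tested, and an adjusted p under 0.05 is a call. The SE is the log2 fold change divided by the root of F, and 95% intervals use 9 residual degrees of freedom. These intervals are wider than the test implies and can include 0 at an unadjusted p under 0.05. Tra2b in allogeneic recipients against controls had an unadjusted edgeR p of 0.0462 and an interval of -0.013 to 0.465. The fit was also run on simulated counts, with a spread set below that of the data (squared biological coefficient of variation 0.1473). That run checked the code and does not show how the fit performs on these data. Other fits used DESeq2 1.42.0, limma-voom 3.58.1, RLE factors, unscaled library totals, all genes with a count, genes over 1 CPM in 4 or more libraries, the 2 compared groups alone, the replicate number as a block, a GC and length offset (known for 12620 genes, loess span 0.3), both together, and leaving out each library.

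The members and gene lists were chosen with earlier results of these data known. Each CLK, SRPK, LUC7L and TRA2 gene is given in every library, and up to 5 SR or hnRNP genes per comparison and direction with the smallest p. From each splicing list up to 2 called genes with the smallest p per comparison could be named. Transcript lengths and shared sequence came from RefSeq and GENCODE on GRCm38, not from the build of the counts, matched by symbol, and no coordinates were carried between builds. The precision of each value is set by 4 libraries per group.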

Additional observations from a re-analysis of the deposited data

Results flagged for a closer look

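In 9 of 126 groups of 4 libraries, 1 library of a member gene stood apart from the other 3 by Dixon's ratio, where chance alone gives about 1 in 20. Clk1 was at 48.1 CPM in syngeneic 1, against 38.0 to 39.3 CPM in the other syngeneic libraries, and Srsf7 was at 191 CPM in syngeneic 1, against 161 to 163 CPM. Hnrnpl was low in the same library, at 91.9 CPM against 106 to 107 CPM, and in control 3, at 69.6 CPM against 81.9 to 83.1 CPM in the other controls. Hnrnpll stood at 26.3 CPM in allogeneic 1, against 14.2 to 15.7 CPM in the other allogeneic libraries, and Hnrnpr at 105.8 CPM in the same library, against 87.8 to 89.7 CPM. Srsf4 was at 0 CPM in allogeneic 1, against 0.374 to 0.429 CPM in the others. Hnrnpa3 was at 11.8 CPM in control 2, against 9.88 to 10.2 CPM, and Srsf3 was at 219.8 CPM in control 3, against 232 CPM in each of the other controls.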

How the results depend on the processing

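Of the 32 members called in allogeneic recipients against controls, 24 were called in the same direction in each of the 22 alternatives, and likewise 23 of the 30 in syngeneic recipients against controls and 2 of the 5 in allogeneic against syngeneic recipients (Srpk3 and Hnrnpk). Counts of members called stayed within 1.5 times the reported count except these. The 13 members higher in allogeneic recipients than in controls became 6 with library totals only. The 2 members higher in allogeneic than in syngeneic recipients became 0 with library totals only, 1 with no filter, 1 with limma-voom, 1 with the replicate block, and 0 to 2 when 1 library was left out. The 3 lower members became 14 with library totals only, 5 with the GC and length offset and 5 with the offset and block together. The offset and block together also ended the Clk2 call in syngeneic recipients (edgeR adjusted p = 0.0621).

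Log2 differences of members that changed sign were as follows, and the cause was not tested. With library totals only, allogeneic minus syngeneic was -0.187 for Clk1, -0.095 for Clk4, -0.111 for Hnrnpa2b1, -0.148 for Luc7l3, -0.13 for Srsf1, -0.172 for Srsf10, -0.144 for Srsf3, -0.029 for Tra2a and -0.09 for Tra2b, and syngeneic minus control was -0.155 for Hnrnpdl, -0.139 for Hnrnpm, -0.107 for Srpk2 and -0.057 for Tra2b, and allogeneic minus control was -0.072 for Hnrnpa2b1, -0.208 for Hnrnpl, -0.031 for Hnrnpm, -0.087 for Hnrnpul2, -0.236 for Srpk1 and -0.147 for Tra2b. With RLE factors, allogeneic minus syngeneic was 0.013 for Hnrnpul2, and allogeneic minus control was 0.011 for Hnrnpul1. With only genes over 1 CPM in 4 libraries, allogeneic minus syngeneic was 0 for Hnrnpul2. In DESeq2, allogeneic minus syngeneic was 0.013 for Hnrnpul2, and allogeneic minus control was 0.012 for Hnrnpul1. In limma-voom, allogeneic minus syngeneic was 0.063 for Hnrnpul2, and allogeneic minus control was 0.01 for Hnrnpul1. With the replicate block, allogeneic minus syngeneic was 0.007 for Hnrnpul2. With the GC and length offset, and with the offset and block together, allogeneic minus syngeneic was -0.156 and -0.164 for Clk1, 0.018 and 0.002 for Clk3, -0.017 and -0.02 for Clk4, -0.07 and -0.07 for Hnrnpa2b1, 0.073 and 0.07 for Hnrnpu, 0.113 and 0.121 for Hnrnpul2, 0.042 and 0.043 for Srpk1, -0.008 and -0.011 for Srsf10, -0.042 and -0.049 for Srsf3 and -0.05 and -0.055 for Srsf7. In the same settings syngeneic minus control was -0.234 and -0.232 for Hnrnpa2b1, -0.047 and -0.047 for Hnrnpdl, -0.344 and -0.325 for Srpk2 and -0.14 and -0.146 for Tra2b. In the same settings allogeneic minus control was -0.303 and -0.302 for Hnrnpa2b1, -0.027 and -0.028 for Hnrnpa3, 0.474 and 0.485 for Hnrnpul1 and -0.037 and -0.04 for Tra2b. Leaving out 1 library, allogeneic minus syngeneic ran from -0.074 to 0.104 for Clk1, -0.247 to 0.022 for Clk2, -0.16 to 0.067 for Clk3, -0.095 to 0.003 for Hnrnpa0, -0.293 to 0.047 for Hnrnpll, -0.133 to 0.109 for Hnrnpul2, -0.204 to 0.091 for Luc7l2, -0.03 to 0.123 for Luc7l3, -0.156 to 0.026 for Srpk1, -0.053 to 0.196 for Srsf1, -0.089 to 0.107 for Srsf10, -0.132 to 0.018 for Srsf11, -0.035 to 0.142 for Srsf3 and -0.094 to 0.001 for Srsf9. Likewise syngeneic minus control ran from -0.099 to 0.002 for Hnrnpc, -0.019 to 0.044 for Hnrnpdl, -0.042 to 0.113 for Hnrnpm and -0.043 to 0.136 for Srpk2. Likewise allogeneic minus control ran from -0.129 to 0.04 for Hnrnpul1 and -0.167 to 0.082 for Srsf1. None of these passed the test in the reported fit except Hnrnpa2b1, Hnrnpa3 and Hnrnpm against controls, and of the changed signs those of Hnrnpa2b1 against controls and of Hnrnpul1 in allogeneic recipients against controls were called with the offset, alone and with the block.

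Libraries with the same replicate number did not deviate together (r across genes of -0.02 to 0.03 over 12 pairs, against -0.04 to 0.04 over 36 pairs with other numbers). This gave no sign of pairing by number across all genes. A pairing that touches few genes could not be seen this way. With the replicate block, 13 members were higher and 19 lower in allogeneic recipients and 12 higher and 19 lower in syngeneic recipients against controls. Depth limits Srsf4 and Srsf12, and group size limits the smaller differences.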
